A study of Mus musculus with 47 samples.

Results

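A set of 10 genes that damp MAP kinase signalling was examined in a mouse cell line with and without a knockdown of annexin A2: the dual-specificity phosphatase genes Dusp1, Dusp4, Dusp5, Dusp6, Dusp10 and Dusp16, the Sprouty genes Spry1, Spry2 and Spry4, and Spred1. For each gene, the probe sets with exactly 1 gene symbol in the platform annotation were considered, and the one with the highest mean signal over the 47 arrays was kept. Of the 10 genes listed, 8 had such a probe set, among 12393 genes with one. Dusp4 and Dusp5 had none and were not analysed here. All 8 measured genes passed the filter that left out the 30% of genes with the lowest mean signal, so 8 of 8675 tested genes are described. Spry1 and Spry4 passed it narrowly, with mean log2 signals of 4.52 and 4.42 against a lower limit of 4.35. The level of a member was never set against that of another member. Only the filter and the marker lists below compare probe sets of different genes, as a rough guide.

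MAP kinases (ERK, JNK and p38) are switched on by phosphorylation of a threonine and a tyrosine, and dual-specificity phosphatases switch them off by removing both phosphates. Sprouty proteins and SPRED1 act further upstream and dampen signalling from growth factor receptors through Ras to ERK. Several of these genes are themselves induced by the kinases they restrain, which makes them feedback inhibitors and their RNA a common readout of pathway output.

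RNA was measured on 47 Affymetrix arrays, 1 per RNA sample, from JB6 cells, a mouse epidermal line that the labels call progenitor cells. Cells stably carried a retroviral short hairpin RNA (AnxA2 shRNA) or the vector control (labelled Ps vector), and both lines had been selected with puromycin and grown in 5% fetal bovine serum. Each line was left untreated (sham) and collected at 2 and 24 h, or given 10 or 100 cGy of X-rays and collected at 2, 6 and 24 h. These conditions make 16 groups of 3 arrays, except vector cells given 10 cGy at 24 h, with 2 arrays, and no untreated 6 h group is among the samples. Each line is a single stable line, and the labels do not say whether it is a pool or a clone or whether replicates were separate cultures. P-values therefore measure the spread between these arrays only, and a difference between lines cannot be told apart from other differences between the 2 transfected populations. In bulk RNA, a change in the share of cells and a change in RNA per cell cannot be told apart either.

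Anxa2 signal was 1.55 ± 0.06 (SE) lower on the log2 scale in untreated shRNA cells (2.92-fold), while the labels state a knockdown of more than 95%. The labelled cell type was set against marker genes. Of 10 measured keratinocyte markers 4 passed the filter, and Cdh1, Trp63 and Epcam did not, while 8 of 9 fibroblast and mesenchymal markers passed. The mean of Krt14, a basal keratinocyte keratin, was 3.84 in vector and 6.57 in shRNA cells. Of the other keratinocyte markers, Krt5 differed most (4.56 and 4.69), and Trp63 read 3.33 and 3.31. The shift in the mean of this list, given below, therefore comes mostly from Krt14. Of the leukocyte, endothelial and melanocyte markers, 3 of 7, 1 of 4 and 2 of 4 passed. The mean of the keratinocyte list lay between 3.62 and 3.95 on vector arrays and between 3.98 and 4.25 on shRNA arrays. That of the mesenchymal list lay between 9.28 and 9.69 on vector arrays and between 9.27 and 9.54 on shRNA arrays, and the part of either list in the results was not tested. Replicate 3 of all 3 vector groups at 2 h stood apart from replicates 1 and 2 (below, "the 3 vector arrays"), and the members' calls and the values they bear on most are given with and without them. These arrays were picked from the same data because they stood apart. Smaller p-values and further calls without them are therefore not independent support. The difference between the 3′ and 5′ Gapdh control probe sets, a sign of RNA degradation, had a median of 0.01 and exceeded 0.3 on 4 arrays. These included replicate 1 of shRNA cells 6 h after 10 cGy (1.06) and replicate 3 of untreated vector cells at 2 h (0.59).

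Dusp1 lies at chr17:26505591-26508472, Dusp6 at chr10:99263231-99267489, Dusp10 at chr1:184034381-184075636 and Dusp16 at chr6:134715468-134807063 (RefSeq, GRCm38.p6). Spry1 lies at chr3:37639947-37644599, Spry2 at chr14:105891947-105896819 and Spred1 at chr2:117121071-117182279. RefSeq's promoter table held an entry for 8 of the 10 listed genes, all but Dusp4 and Spry4. The 250 bases upstream of the listed start are shown for the 3 genes on which the results turn: Dusp1 and Dusp16, which were higher in shRNA cells, and Dusp6, which was lower. The Dusp16 window lies within the full span of the gene, upstream of the start that the table lists. Capitals mark the core TGACG of the cAMP response element (CRE), on either strand, and its full palindrome TGACGTCA.
Dusp1, chr17:26508473-26508722, minus strand: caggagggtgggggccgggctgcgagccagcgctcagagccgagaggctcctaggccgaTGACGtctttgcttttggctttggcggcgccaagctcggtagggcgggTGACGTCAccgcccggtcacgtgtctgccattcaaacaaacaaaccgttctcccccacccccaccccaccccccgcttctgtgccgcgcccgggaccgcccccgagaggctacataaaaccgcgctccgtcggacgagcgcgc
Dusp16, chr6:134792629-134792878, minus strand: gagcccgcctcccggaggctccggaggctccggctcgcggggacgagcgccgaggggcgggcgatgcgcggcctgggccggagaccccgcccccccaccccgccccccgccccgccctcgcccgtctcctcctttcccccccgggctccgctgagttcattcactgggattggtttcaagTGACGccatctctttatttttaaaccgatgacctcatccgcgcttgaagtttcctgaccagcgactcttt
Dusp6, chr10:99262981-99263230, plus strand: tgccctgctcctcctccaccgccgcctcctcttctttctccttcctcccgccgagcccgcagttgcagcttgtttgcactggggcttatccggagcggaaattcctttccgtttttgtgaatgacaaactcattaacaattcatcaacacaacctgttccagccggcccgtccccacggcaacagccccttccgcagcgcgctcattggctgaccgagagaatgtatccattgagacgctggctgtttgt
In all, 6 motifs were searched on both strands. They were the full CRE TGACGTCA, the CRE core TGACG that it contains, and the AP-1 sites TGACTCA and TGAGTCA. The others were the ETS site CCGGAA, the GC box GGGCGG and the CArG box of serum response factor. Dusp1 held a full CRE at bases -143 to -136, counted from the start, and a further CRE core at -191 to -187. No other member with an entry held the full palindrome, which 1.55% of 32851 mouse promoters of the same length held. Dusp16 held 1 CRE core, at -70 to -66, and 17.8% of promoters held at least 1. Dusp5 held 1 CRE core and 2 CArG boxes, a motif found in 1.47% of promoters. No member held the AP-1 sites (4.46% of promoters) or the ETS site CCGGAA (12% of promoters). The shorter ETS core GGAA was not searched, and the Dusp6 sequence shown holds it. GC boxes (32.7% of promoters) were found upstream of Dusp1, Dusp5, Dusp10, Dusp16, Spry1 and Spred1. Dusp6 and Spry2 held none of the 6 motifs. A match describes the letters only, and binding was not measured.

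The first comparison asks how the lines differed without radiation. Dusp1 and Dusp16 were higher in shRNA than in vector cells, and Dusp6 and Dusp10 were lower, while Spry1, Spry2 and Spred1 did not pass the test. Spry4, also lower in shRNA cells, is described apart, since it passed the filter only through its vector signal. The change in Dusp1 was 4.57-fold and that in Dusp16 was 2.61-fold. In this contrast, the mean over untreated 2 and 24 h, 48.2% of all tested genes were called by limma at an adjusted p under 0.05, against 5 of 8 members, or 4 of 7 without Spry4, which is near the background. The median difference of the 8 members was -0.16 on the log2 scale, against 0.02 over all tested genes.

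Dusp1 encodes a nuclear phosphatase, also called MKP-1, that acts on p38, JNK and ERK. At 2 h its log2 signal on the 3 untreated vector arrays was 6.82, 6.84 and 7.91, and on the 3 shRNA arrays it was 8.79, 8.89 and 9.03. At 24 h it was 7.67, 7.66 and 7.73 in vector and 10.45, 10.28 and 10.34 in shRNA cells. Every shRNA array lay above every vector array, and replicate 3 of vector cells at 2 h lay more than 1 log2 unit above its 2 partners. Over both times the difference was 2.19 ± 0.20 (SE, log2; 95% interval 1.79 to 2.59; adjusted p = 6.01e-12). Without the 3 vector arrays it was 2.37 ± 0.07.

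Dusp16 encodes MKP-7, a phosphatase that prefers JNK and p38 and shuttles between nucleus and cytoplasm. Untreated vector arrays read 7.15, 7.02 and 6.28 at 2 h and 6.15, 6.37 and 6.04 at 24 h. The shRNA arrays read 7.90, 7.72 and 7.89 at 2 h and 8.06, 7.93 and 7.83 at 24 h. The lines did not overlap, and the lowest vector value at 2 h was again that of replicate 3. The difference was 1.38 ± 0.14 (adjusted p = 7.32e-11), and 1.25 ± 0.09 without the 3 vector arrays.

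Dusp6 encodes MKP-3, a cytoplasmic phosphatase specific for ERK whose transcription follows ERK activity in many cells. Vector arrays read 9.84, 9.80 and 8.88 at 2 h and 8.25, 8.04 and 8.41 at 24 h. The shRNA arrays read 8.69, 8.80 and 8.89 at 2 h and 7.17, 7.10 and 7.25 at 24 h. Vector cells were higher at each time, except that replicate 3 at 2 h fell within the shRNA values. The difference was -0.89 ± 0.14 (1.85-fold, adjusted p = 1.03e-06), and -1.04 ± 0.09 without the 3 vector arrays.

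Dusp10 encodes MKP-5, a phosphatase for JNK and p38. Its untreated arrays read 7.17, 7.19 and 6.66 (vector, 2 h), 6.63, 6.97 and 6.93 (shRNA, 2 h), 7.19, 6.91 and 6.82 (vector, 24 h) and 6.34, 6.12 and 5.97 (shRNA, 24 h). The lines overlapped at 2 h and not at 24 h. The difference was -0.50 ± 0.11 (1.41-fold, adjusted p = 0.000158), and -0.58 without the 3 vector arrays. Dusp10 and Dusp16, which share a preference for the stress kinases, differed in opposite directions.

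Among the Sprouty genes, untreated Spry4 vector arrays read 4.71, 5.12 and 4.28 at 2 h and 4.65, 4.44 and 4.63 at 24 h. Its shRNA arrays read 4.29, 4.12 and 3.75 at 2 h and 3.99, 4.13 and 4.10 at 24 h. The lines did not overlap at 24 h, and at 2 h vector replicate 3 lay within the shRNA values. The difference was -0.57 ± 0.12, and -0.68 ± 0.12 without the 3 vector arrays. All 8 shRNA group means (3.89 to 4.34) lay under the filter's limit of 4.35, and all 8 vector group means (4.42 to 4.96) lay above it. The difference is therefore a description, and its size at this signal is uncertain. With no filter on low genes, its adjusted p was 0.000244 by limma, which leaves the size as uncertain as before. Spry1 (-0.06), Spry2 (-0.26) and Spred1 (0.02) did not pass the test, and without the 3 vector arrays Spry2 had a difference of -0.15.

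**Figure D1:**
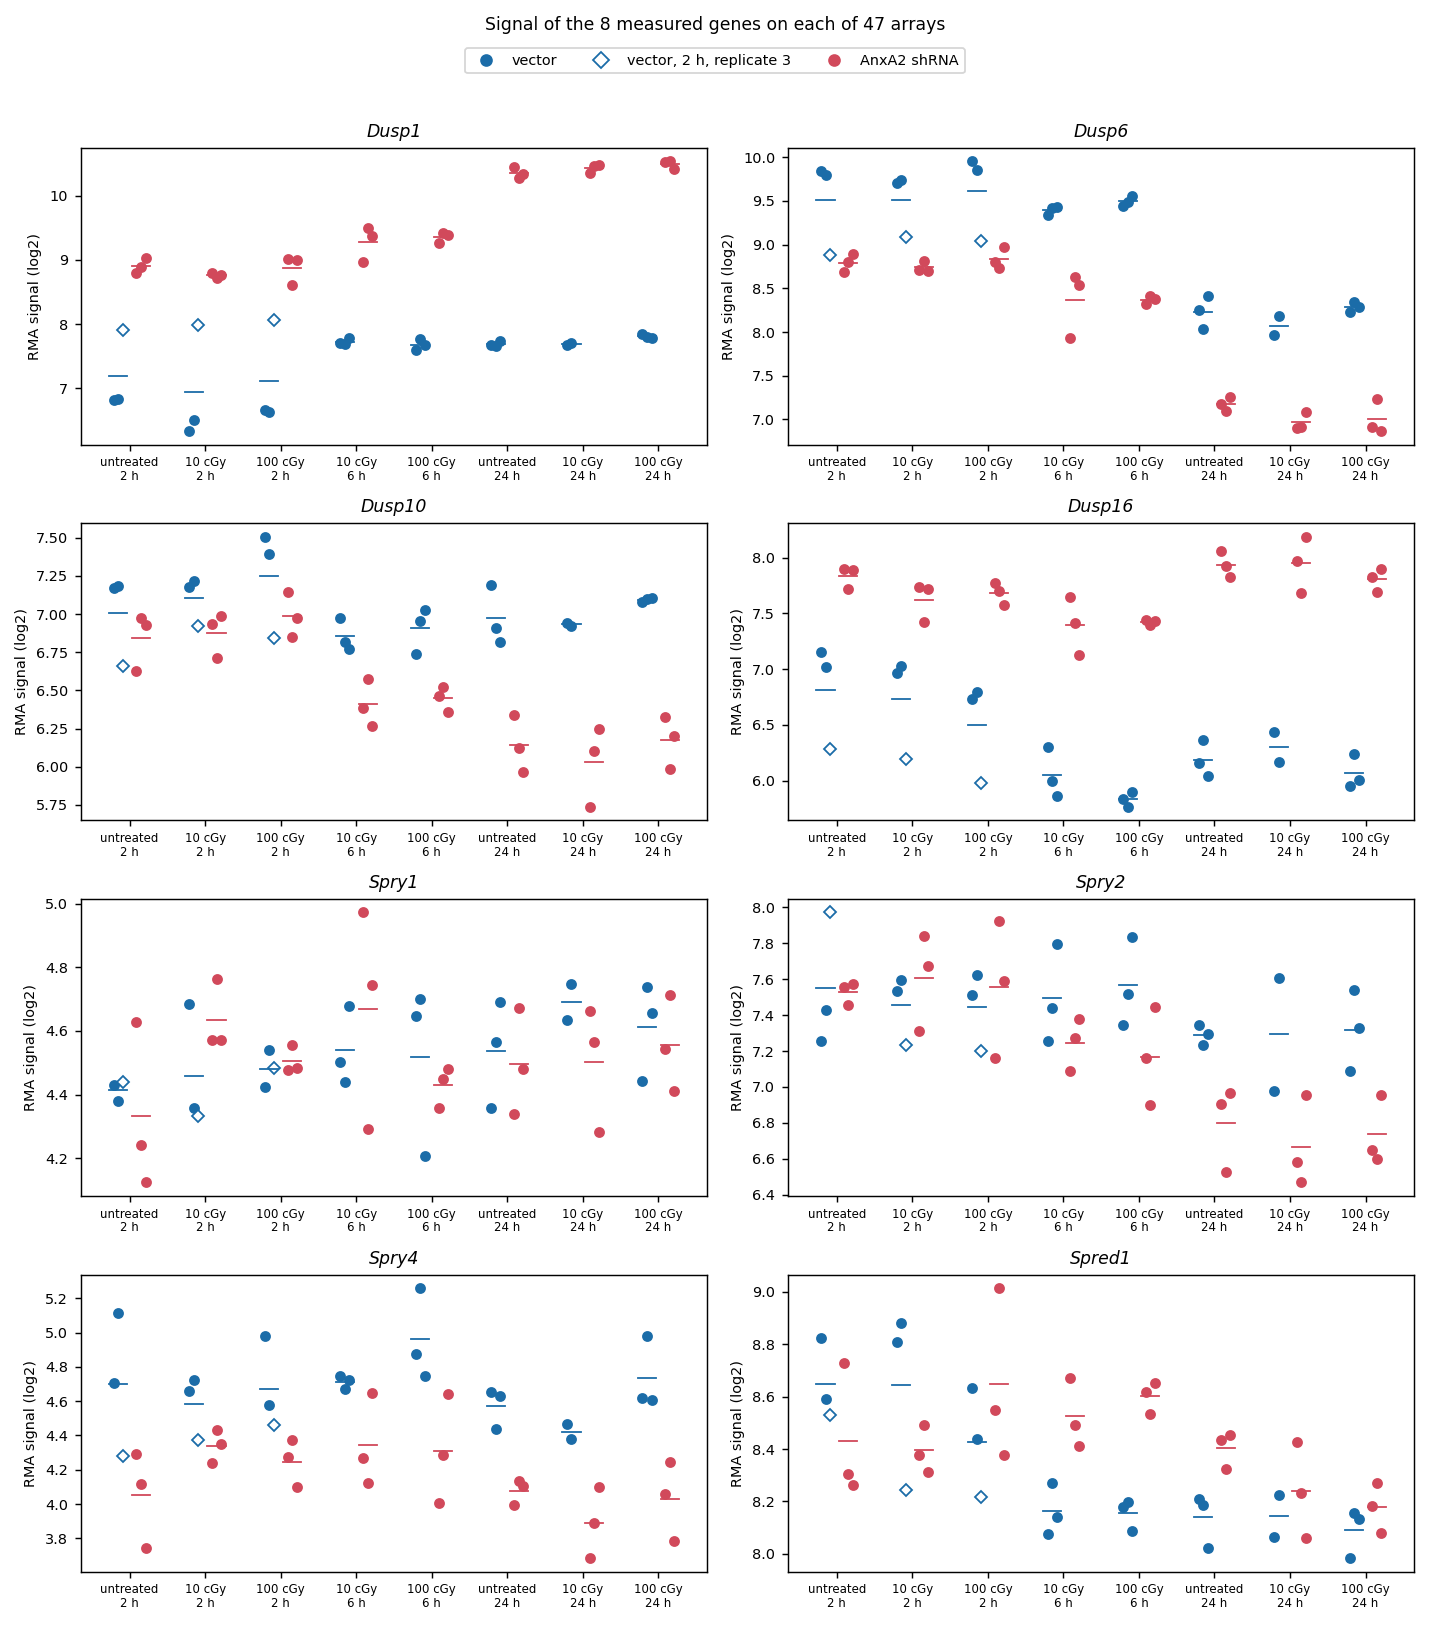
RMA signal (log2, vertical axis) of the 8 measured genes on each array, by treatment and time (horizontal axis). Dots are arrays, bars are group means, and open diamonds are replicate 3 of vector cells at 2 h. Dusp1 is the gene whose lines never overlap: vector arrays lie between 6.33 and 8.07 and shRNA arrays between 8.60 and 10.54.

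The same difference was then taken in each of the 8 conditions, which gave 64 pairs of a member and a condition. Dusp1, Dusp6 and Dusp16 were called in all 8 conditions, Dusp1 and Dusp16 always higher in shRNA cells and Dusp6 always lower. In all, 39 pairs were called, 18 higher and 21 lower. Leaving Spry4 aside, 34 of 56 pairs were called. The counts that follow include Spry4 in untreated cells at 2 and 24 h. They also include it after 10 cGy at 24 h and after 100 cGy at 6 and 24 h. At 2 h, 4 of 8 members were called in untreated cells (33.8% of all genes), 3 after 10 cGy (33.4%) and 3 after 100 cGy (40.0%). At 6 h, 5 were called after 10 cGy (35.7%) and 6 after 100 cGy (37.2%). At 24 h, 6 were called in untreated cells (39.3%), 6 after 10 cGy (33.7%) and 6 after 100 cGy (38.3%). Without the 3 vector arrays, 4, 4 and 5 members were called at 2 h (33.4%, 34.9% and 38.6% of all genes). Spred1 was then lower in shRNA cells after 10 cGy (-0.45, adjusted p = 0.00818), and Dusp10 and Spry4 were lower after 100 cGy.

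The size of the gap at each time is given here, and tests of its change over time follow further on. For Dusp1 it was 1.71, 1.82 and 1.75 at 2 h in untreated, 10 cGy and 100 cGy cells, 1.55 and 1.67 at 6 h, and 2.67, 2.74 and 2.68 at 24 h, each ± 0.28 to 0.31 (SE). Without the 3 vector arrays the 2 h gaps of Dusp1 were 2.07, 2.34 and 2.22 (each ± 0.11), and the 6 h gaps were again 1.55 and 1.67. The 24 h gap corresponds to between 6.36-fold and 6.67-fold. For Dusp16 the gap in untreated cells was 1.02 at 2 h (0.75 without the 3 vector arrays) and 1.75 at 24 h. For Dusp6 it lay between -0.71 and -1.28 over the 8 conditions, and its 2 h values without those arrays were -1.03, -0.98 and -1.07. Dusp10 was not called at 2 h and was lower in shRNA cells at 6 h (-0.44 and -0.46) and at 24 h (-0.83, -0.90 and -0.92).

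Spry2, an inhibitor of receptor signalling to Ras and ERK, was called in the 3 comparisons at 24 h, where it was lower in shRNA cells by 0.49 in untreated cells (adjusted p = 0.0431), by 0.62 after 10 cGy (adjusted p = 0.0238) and by 0.58 after 100 cGy (adjusted p = 0.016). Its other probe set, with a mean of 4.42, had the same sign in 3 of the 6 contrasts in which the used one was called. Spry4 had differences of -0.50 to -0.71 in the 5 conditions in which it was called, to be read as above. Its other probe set has a mean of 3.80, under the filter's limit. Spred1, an adaptor that helps neurofibromin to inactivate Ras, was higher in shRNA cells at 6 h, by 0.36 after 10 cGy (adjusted p = 0.0395) and by 0.45 after 100 cGy (adjusted p = 0.0102). Its 6 h vector arrays lay between 8.07 and 8.27 and its shRNA arrays between 8.41 and 8.67, without overlap. Its other probe sets did not all show this: one read 0.33 ± 0.15 and 0.40 ± 0.15 at 6 h, and the other -0.06 ± 0.14 and 0.05 ± 0.14. The latter was also lower in untreated shRNA cells, at -0.40 ± 0.10 against 0.02 for the probe set used. The other Dusp10 probe set had the same sign in 10 of 11 called contrasts. The exception was the step from 6 to 24 h in irradiated shRNA cells, at 0.07 ± 0.18 against -0.33 for the probe set used. Spry1 was called in no condition, with every array between 4.12 and 4.97.

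Several of these calls hang on single arrays. In untreated cells at 24 h, the Spry2 call ended without replicate 1 or 2 of shRNA or any of the 3 vector replicates (-0.54 to -0.36), and the Spry4 call without shRNA replicate 1 or vector replicate 1 or 3 (-0.47 to -0.45). The Spry4 call in untreated cells at 2 h ended without vector replicate 2 (-0.44, adjusted p = 0.0654). After 10 cGy at 24 h, the Spry2 call ended without shRNA replicate 1 (-0.58) or 2 (-0.52) or vector replicate 3 (-0.31). The Spry4 call there ended without shRNA replicate 1 or 2 or either vector replicate (-0.58 to -0.43). After 100 cGy at 24 h, the Spry2 call ended without shRNA replicate 1 or 2 or vector replicate 2 (-0.54 to -0.47). At 6 h after 10 cGy, the Spred1 call ended without shRNA replicate 1 or 2 or vector replicate 1 or 3 (0.29 to 0.38), and the Dusp10 call without shRNA replicate 3 (-0.37) or vector replicate 1 (-0.38). At 6 h after 100 cGy, the Dusp10 call ended without replicate 3 of shRNA (-0.41) or of vector (-0.40). The calls of Dusp1 and Dusp16 in the 8 conditions held with each array left out in turn, as did those of Dusp6.

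**Figure D2:**
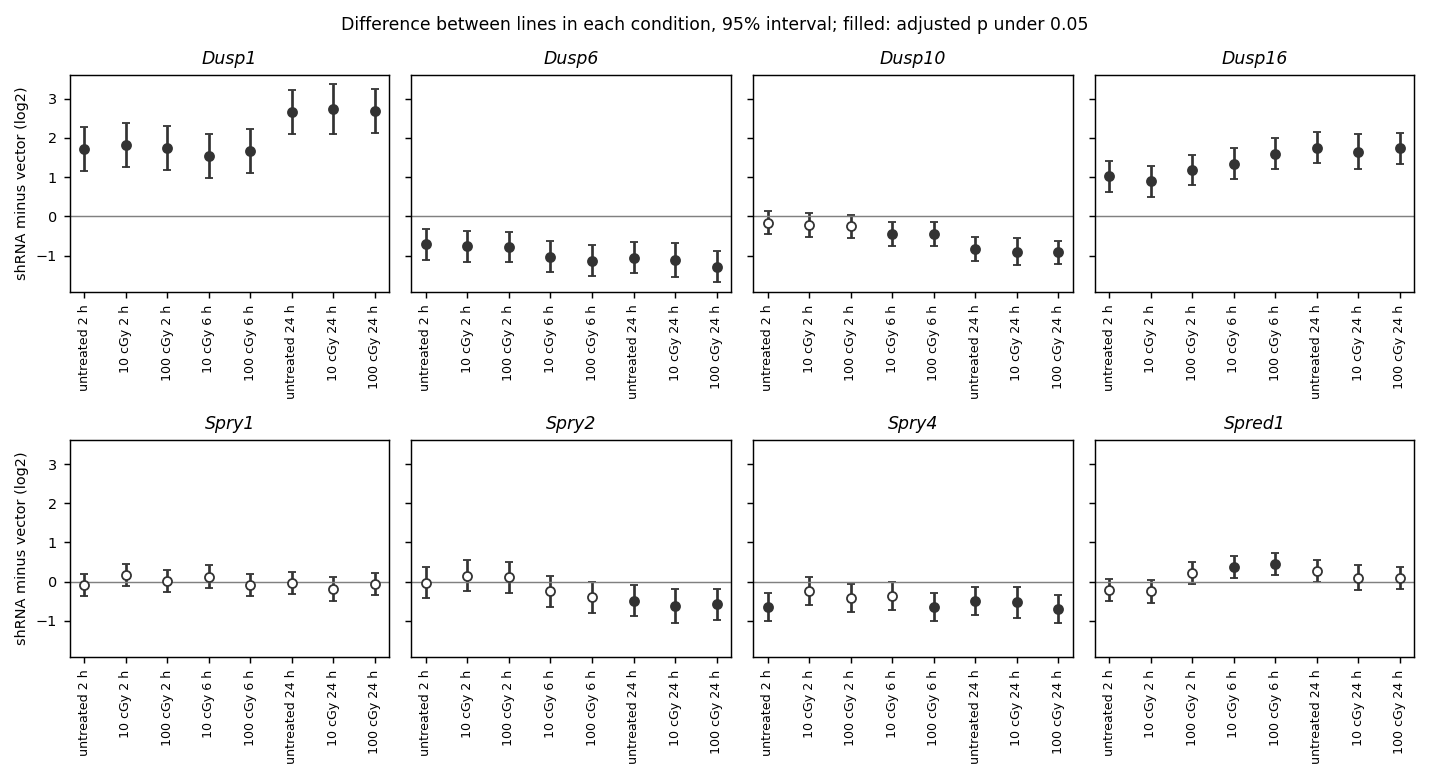
Difference between lines (shRNA minus vector, log2, vertical axis) of each gene in the 8 conditions (horizontal axis), with its 95% interval from the limma fit; filled points have an adjusted p under 0.05. Dusp1 lies between 1.55 and 1.82 at 2 and 6 h (at 2 h between 2.07 and 2.34 without the 3 vector arrays) and between 2.67 and 2.74 at 24 h, Dusp6 is below 0 throughout, and Spry1 stays around 0.

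The order of the 16 group means shows which conditions separate. For Dusp1, the 3 shRNA groups at 24 h were highest (means of 10.36 to 10.49), and the lowest was vector 10 cGy at 2 h (6.94 ± 0.90, SD, n = 3). Of its 15 steps between neighbours in this order, 2 had no overlap of arrays: the step of 1.01 below the shRNA 24 h groups, and the step of 0.95 between the lowest shRNA and the highest vector group. Dusp6 ran the other way, from 9.62 ± 0.50 in vector cells 2 h after 100 cGy to 6.97 ± 0.10 in shRNA cells 24 h after 10 cGy, with 4 of 15 steps free of overlap. Dusp10 had the same highest and lowest group (7.25 and 6.03) and 1 such step. Spry1, Spry2, Spry4, Spred1 and Dusp16 had none, so their neighbouring groups did not separate. For Dusp16 this concerns neighbours in the order only. Within each of the 8 conditions its lines did not overlap, and over all arrays vector cells reached 7.15 and shRNA cells began at 7.12. The share of such steps over all genes is not given here.

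The next comparison asks what time alone did, from 2 to 24 h in untreated cells. Dusp6 fell in both lines, by 1.27 ± 0.19 in vector cells (2.42-fold, adjusted p = 3.33e-06) and by 1.62 ± 0.19 in shRNA cells (3.07-fold, adjusted p = 7.94e-08). Its fall in vector cells without the 3 vector arrays was 1.59 ± 0.13. Dusp1 rose in shRNA cells by 1.45 ± 0.28 (2.74-fold, adjusted p = 0.00018), so the 2 phosphatases moved in opposite directions there. In vector cells 3 of 8 members were called, all lower at 24 h, where 25.9% of all genes were called. In shRNA cells 4 of 8 were called, 1 higher and 3 lower, where 19.2% of all genes were called.

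In vector cells the other calls were Dusp16, which fell by 0.63 ± 0.19 (adjusted p = 0.0139), and Spred1, which fell by 0.51 ± 0.14 (adjusted p = 0.00592). Dusp1 had a difference of 0.50 ± 0.28 in vector cells and was not called. Leaving out the 3 vector arrays gave a Dusp1 difference of 0.86 ± 0.11 in vector cells (adjusted p = 8.54e-08). In that fit 4 members were called in place of 3 (27.0% of all genes), with Dusp16 at -0.90 and Spred1 at -0.57. In shRNA cells Dusp10 fell by 0.70 ± 0.15 (adjusted p = 0.000673) and Spry2 by 0.73 ± 0.20 (adjusted p = 0.00625). With single arrays left out, the Dusp16 call in vector cells ended without replicate 1 (-0.46) or 2 (-0.53) at 2 h or replicate 3 at 24 h (-0.56), and the Spred1 call without replicate 1 at 2 h (-0.42, adjusted p = 0.0511). The Spry2 call in shRNA cells ended without replicate 2 at 24 h (-0.59, adjusted p = 0.0531). Spry2 untreated shRNA arrays read 7.55, 7.45 and 7.57 at 2 h and 6.90, 6.53 and 6.97 at 24 h, without overlap. Its vector arrays read 7.26, 7.43 and 7.97 at 2 h and 7.34, 7.23 and 7.29 at 24 h, with overlap.

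Whether the time change differed between lines was tested as an interaction. No member was called by limma, where 5.69% of all genes were, and the smallest adjusted p was 0.052. At an unadjusted p under 0.05 there were 4 members: Dusp1 (0.96 ± 0.39), Dusp16 (0.73 ± 0.27), Dusp10 (-0.67 ± 0.21) and Spred1 (0.48 ± 0.20). When the 3 vector arrays were left out, 2 members were called, where 6.58% of all genes were. These were Dusp1 with 0.59 ± 0.15 (adjusted p = 0.00797) and Dusp16 with 1.001 ± 0.19 (adjusted p = 0.000338).

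Several members read differently on the 3 vector arrays. Dusp1 read 7.91, 7.98 and 8.07 on them and between 6.33 and 6.84 on the other 6 vector arrays at 2 h. These values are above the range of vector cells at 24 h, 7.66 to 7.85. Dusp16 read between 5.97 and 6.28 on them and between 6.74 and 7.15 on the other 6, and vector cells at 24 h spanned 5.95 to 6.43. Dusp6 read between 8.88 and 9.09 against 9.70 to 9.96, and its 24 h range was 7.96 to 8.41. Dusp10 and Spry4 were also lower on them without overlap, by 0.47 and 0.42, while Spry1, Spry2 and Spred1 overlapped. The share of all genes without overlap is not given here, so the separation cannot be read as particular to the members. The Gapdh difference was 0.59 on the untreated one of these arrays and 0.08 and -0.00096 on the irradiated ones. Leaving them out lowered the standard error of a Dusp1 group difference from 0.28 to 0.10 in all conditions, also in those without these arrays, because all groups share 1 estimate of the spread. As the arrays were picked for standing apart, the smaller spread follows in part from that choice.

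**Figure D3:**
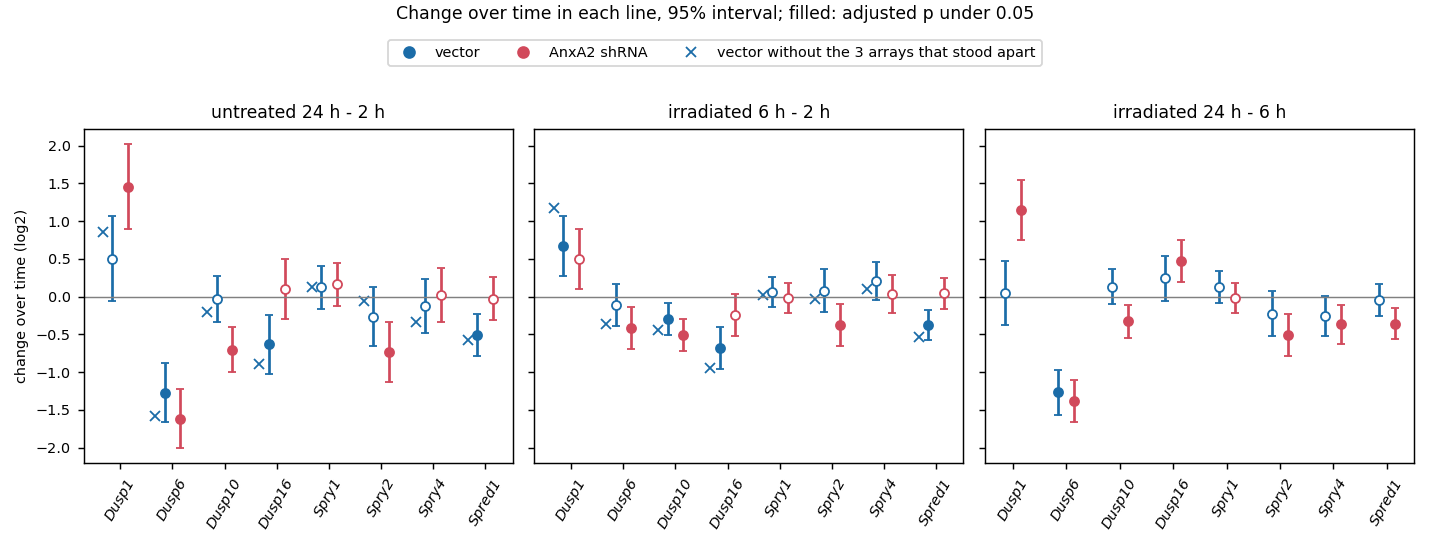
Change over time (log2, vertical axis) of each gene (horizontal axis) in vector and shRNA cells, with 95% intervals; filled points have an adjusted p under 0.05 and crosses give vector values without the 3 vector arrays. Between 2 and 24 h, Dusp6 falls in both lines and Dusp1 rises in shRNA cells.

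Irradiated cells were sampled at 3 times, which divides their time course into 2 steps (mean of 10 and 100 cGy). Untreated cells have no 6 h group, so the steps describe irradiated cells. Between 2 and 6 h, vector cells had 4 members called (16.7% of all genes): Dusp1 rose by 0.67 ± 0.20 (adjusted p = 0.0141), and Dusp16 (-0.67), Spred1 (-0.38) and Dusp10 (-0.30) fell. In shRNA cells 3 fell (21.5% of all genes): Dusp10 (-0.51), Dusp6 (-0.42) and Spry2 (-0.38). The Dusp1 difference of 0.50 ± 0.20 was not called there. The Dusp1 rise in vector cells without the 3 vector arrays was 1.17 ± 0.08, with Dusp16 at -0.94, Spred1 at -0.53 and Dusp10 at -0.44. In that fit 5 members were called in each line (19.7% of all genes in vector and 25.6% in shRNA cells). With single arrays left out, the Dusp1 call ended without replicate 1 or 2 of either dose at 2 h (0.52 to 0.57). The Dusp10 call in vector cells ended without any of those arrays, replicate 1 or 2 at 6 h after 100 cGy or replicate 2 or 3 at 6 h after 10 cGy (-0.31 to -0.23). In shRNA cells the Dusp6 call ended without replicate 3 at 2 h after 100 cGy (-0.39) or replicate 1 at 6 h after 10 cGy (-0.31). The Spry2 call ended without replicate 2 or 3 at 2 h or replicate 1 or 2 at 6 h, of either dose (-0.38 to -0.29).

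Between 6 and 24 h, vector cells had 1 member called (39.0% of all genes), Dusp6, which fell by 1.27 ± 0.14 (adjusted p = 4.21e-09). Vector arrays of Dusp6 lay between 9.34 and 9.56 at 6 h and between 7.96 and 8.41 at 24 h, while those of Dusp1 lay between 7.60 and 7.78 and then between 7.66 and 7.85. In shRNA cells 7 of 8 members were called (39.2% of all genes), 2 higher and 5 lower. Dusp1 rose by 1.15 ± 0.20 (2.21-fold, adjusted p = 1.11e-05), from 8.97 to 9.49 at 6 h to 10.28 to 10.54 at 24 h over all treatments, without overlap. Dusp16 rose by 0.47 ± 0.14 (adjusted p = 0.00608). Dusp6 fell by 1.38 ± 0.14, Spry2 by 0.51, Spry4 by 0.37, Spred1 by 0.36 and Dusp10 by 0.33. On replicate 1 of shRNA cells 6 h after 10 cGy, the array with the highest Gapdh difference, Dusp6 read 7.93 and Dusp1 read 8.97, each below its 2 partners. The Dusp10 call in shRNA cells ended without replicate 1 of 10 cGy at 24 h (-0.25), and the other Dusp10 probe set read 0.07 ± 0.18. The Spry4 call ended without replicate 3 of either dose at 6 h, replicate 3 of 100 cGy at 24 h or replicate 1 of 10 cGy at 24 h (-0.32 to -0.29).

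The lines were then compared step by step. From 2 to 6 h no member differed between lines by limma (2.85% of all genes; smallest adjusted p 0.0998; 3 members at an unadjusted p under 0.05). From 6 to 24 h 2 members differed (10.1% of all genes). The Dusp1 step was 1.15 in shRNA and 0.05 in vector cells, a difference of 1.10 ± 0.29 (adjusted p = 0.00912). The Dusp10 step was -0.33 in shRNA and 0.13 in vector cells, a difference of -0.46 ± 0.15 (adjusted p = 0.0488). On the other Dusp10 probe set this difference was -0.22 ± 0.26. Neither step uses a 2 h array, yet without the 3 vector arrays the adjusted p became 2.5e-10 for Dusp1 and 0.00948 for Dusp10, with the same differences. From 2 to 6 h, 3 members then differed (5.33% of all genes): Dusp1 (-0.67), Dusp16 (0.70) and Spred1 (0.57).

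Radiation itself was tested against untreated cells of the same line and hour. At 2 and 24 h none of the 64 pairs of a member and a response was called by limma. The differences ranged from -0.32 to 0.30 on the log2 scale with standard errors of 0.14 to 0.31, the smallest adjusted p was 0.516, and 1 pair had an unadjusted p under 0.05. Few genes of any kind were called. At 2 h, 0% of tested genes were called for 10 cGy in vector cells, 0.0115% for 10 cGy in shRNA cells, 0.0461% for 100 cGy in vector cells and 0.0231% for 100 cGy in shRNA cells. At 24 h the shares were 0.0115% and 0% for 10 cGy in vector and shRNA cells, and 0.0922% and 0.161% for 100 cGy. The members' count was also 0 without the 3 vector arrays, where 0% to 0.311% of all genes were called.

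**Figure D4:**
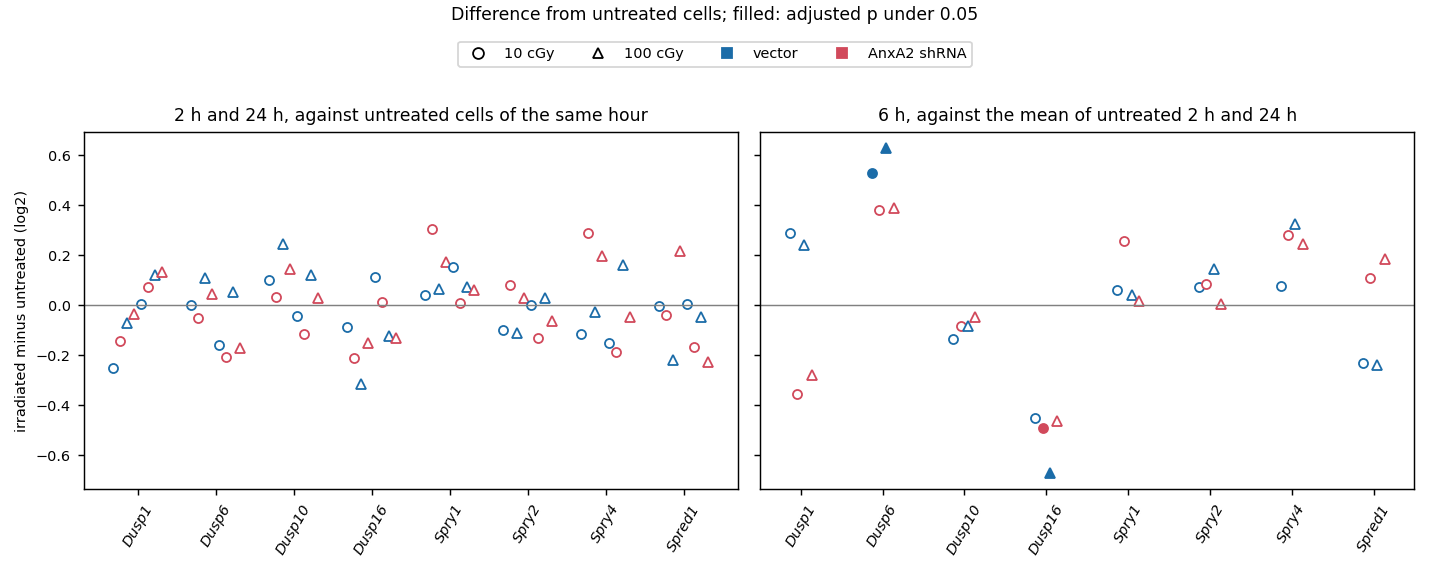
Difference between irradiated and untreated cells (log2, vertical axis) for each gene (horizontal axis), at 2 and 24 h against untreated cells of the same hour (left) and at 6 h against the mean of untreated 2 and 24 h (right); circles are 10 cGy, triangles 100 cGy, and filled symbols have an adjusted p under 0.05. All values on the left lie between -0.32 and 0.30.

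At 6 h the only untreated reference is the mean of 2 and 24 h, so time and radiation cannot be told apart there. Of 32 pairs, 4 were called. In vector cells Dusp6 was above this mean by 0.53 ± 0.17 after 10 cGy (adjusted p = 0.0226; 17.1% of all genes called) and by 0.63 ± 0.17 after 100 cGy (adjusted p = 0.00586; 18.4%). Dusp16 was below it by 0.67 ± 0.17 in vector cells after 100 cGy (adjusted p = 0.0036) and by 0.49 ± 0.17 in shRNA cells after 10 cGy (adjusted p = 0.0369; 17.5%). In shRNA cells after 100 cGy 15.0% of all genes and no member was called. Against untreated 2 h cells alone, the Dusp6 values in vector cells were -0.11 and -0.01 in place of 0.53 and 0.63, with the opposite sign. With single arrays left out, the Dusp6 call after 10 cGy ended without any of its 3 irradiated arrays, untreated replicate 3 at 2 h or untreated replicate 2 at 24 h (0.37 to 0.56). The Dusp16 call in shRNA cells ended without irradiated replicate 2 or 3, untreated replicate 1 or 3 at 2 h or untreated replicate 1 at 24 h (-0.50 to -0.36). When the 3 vector arrays were left out, 12 pairs were called, all 4 responses of Dusp1, Dusp6 and Dusp16. For 10 and 100 cGy, 20.5% and 18.7% of all genes were then called in vector cells and 21.8% and 19.3% in shRNA cells. Dusp1 was 0.47 and 0.42 above the reference in vector cells and 0.36 and 0.28 below it in shRNA cells. Dusp6 was then 0.37 and 0.47 above it in vector cells, and Dusp16 had values of -0.59 and -0.81 there.

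Responses of the 2 lines were also compared directly, in 48 pairs, and none was called. The shares of all genes called were 0.0115% at 2 h for each dose, 1.64% and 1.04% at 6 h for 10 and 100 cGy, and 0.0115% and 0.0807% at 24 h. The members' smallest adjusted p was 0.374, and 2 pairs had an unadjusted p under 0.05. In the fit without the 3 vector arrays 2 were called, the 6 h responses of Dusp1 (-0.83 and -0.70, shRNA minus vector). In these 2 contrasts 4.24% and 2.34% of all genes were then called. Between 100 and 10 cGy, over both lines, no member differed at 2 h (0.0346% of all genes), 6 h (0.0807%) or 24 h (0.115%). The largest of these 24 dose differences was 0.23, and 0 had an unadjusted p under 0.05.

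Other genes of the pathway were counted from 4 lists. In time, the ERK outputs moved one way: of 16 tested ERK output genes other than the members, 13 fell and 0 rose from 2 to 24 h in untreated vector cells (25.9% of all genes called), and 12 fell and 0 rose in shRNA cells (19.2%). The median change of this list was -0.72 in vector and -1.43 in shRNA cells, against 0.02 over all genes in each. Egr1, an immediate early transcription factor, fell by 2.85 ± 0.13 in shRNA cells, and the AP-1 subunit gene Fosl1 fell by 0.64 in vector and by 1.56 in shRNA cells. Hbegf, a ligand of the EGF receptor, fell by 2.94 ± 0.43 and Plaur, the urokinase receptor, by 1.75 ± 0.25 in vector cells. Epha2 fell by 0.75 and by 0.88 in the 2 lines, and Ier3 by 1.68 in shRNA cells. Dusp6 shared this direction in both lines and Spry2 in shRNA cells, while Dusp1 had the opposite sign in both. In the fit without the 3 vector arrays 13 of 16 fell in each line (27.0% of all genes called in vector and 23.9% in shRNA cells), and the Hbegf fall was 3.60 ± 0.12.

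The kinase cascades showed smaller medians in time. Of 18 tested genes from receptor to ERK, 2 rose and 4 fell in vector cells (25.9% of all genes called) and 3 rose and 1 fell in shRNA cells (19.2%). These counts are near the background. In vector cells Map2k1, which encodes an ERK kinase, fell by 0.55, Sos1 by 0.57 and Ptpn11 by 0.33, and Pdgfrb rose by 0.62. In shRNA cells Pdgfrb rose by 0.56, Gab1 by 0.54 and Rps6ka3 by 0.49, and Fgfr1 fell by 0.68. Of 18 tested JNK and p38 cascade genes, 2 rose and 7 fell in vector and 1 rose and 7 fell in shRNA cells. Map2k3, a p38 kinase gene, fell by 0.80 in vector and by 1.03 in shRNA cells, and Gadd45b, a stress-induced activator of these cascades, fell by 0.83 and by 0.34. With the 3 vector arrays left out, 9 genes of this list fell in vector cells (27.0% of all genes called).

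Of 16 other phosphatase and feedback genes, 2 rose and 7 fell in vector (25.9% of all genes called) and 1 rose and 4 fell in shRNA cells (19.2%). Errfi1, an inhibitor of the EGF receptor, fell by 2.95 ± 0.33 in shRNA cells, Lrig1, another receptor inhibitor, by 0.87, and Dusp9 by 0.59 there and by 0.87 in vector cells. Dusp3, an atypical phosphatase, rose by 0.48 in vector cells. With the 3 vector arrays left out, 8 genes of this list fell in vector (27.0% of all genes called) and 6 in shRNA cells (23.9%).

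**Figure D5:**
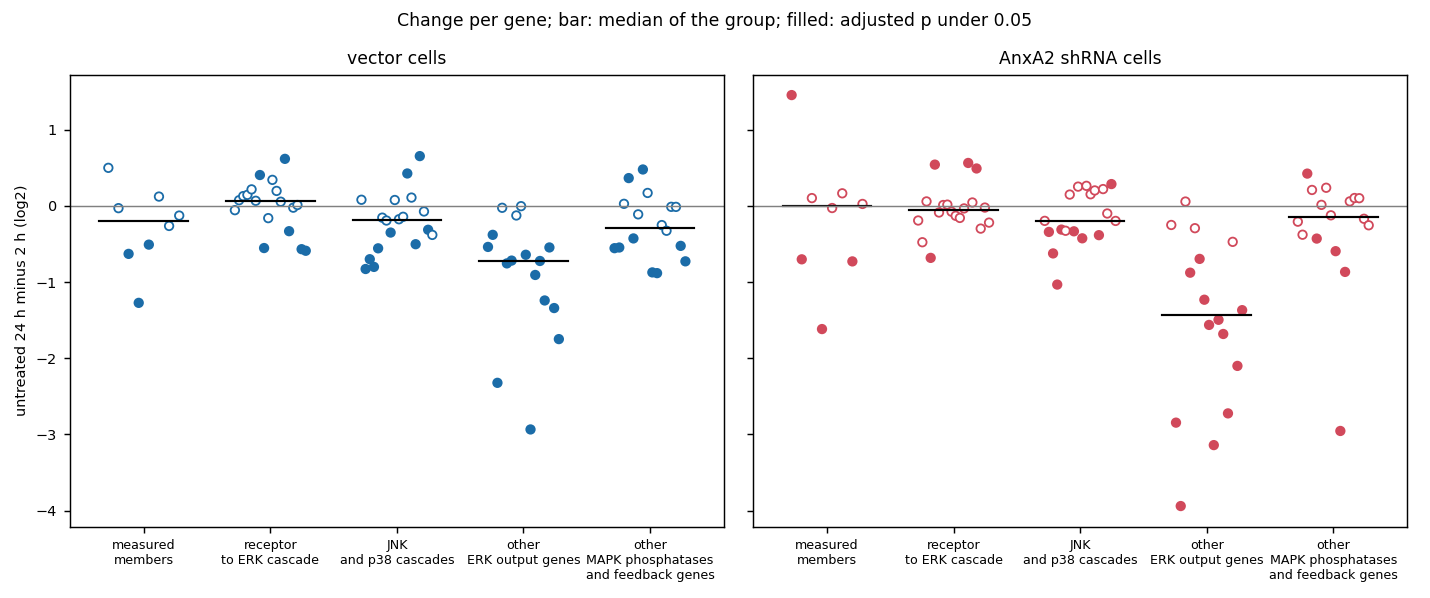
Change from 2 to 24 h in untreated cells (log2, vertical axis) of each tested gene, for the measured members and 4 lists of pathway genes (horizontal axis); bars are medians and filled dots have an adjusted p under 0.05. The ERK output genes lie mostly below 0, with medians of -0.72 in vector and -1.43 in shRNA cells.

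Between untreated lines these lists went both ways, and 48.2% of all genes were called. From receptor to ERK, 6 genes were higher and 3 lower in shRNA cells, among them the PDGF receptor gene Pdgfra (-2.58 ± 0.08), Araf (-0.56), Braf (0.61) and Nras (0.34). In the JNK and p38 list 6 were higher and 4 lower, with Map2k6, a p38 kinase gene, at -2.22 ± 0.15 and Mapk8, which encodes JNK1, at -0.53. Of the ERK output genes 4 were higher and 4 lower over both times, but the counts differed by time: 8 higher and 1 lower at 2 h (median 0.35; 33.8% of all genes called) and 2 higher and 6 lower at 24 h (median -0.30; 39.3%). Leaving out the 3 vector arrays gave 8 higher and 5 lower at 2 h (median 0.26; 33.4% of all genes called) and 4 higher and 8 lower at 24 h (43.6%). Over both times, Etv4 (-0.70), Etv5 (-0.73), Ier3 (-0.65) and Egr1 (-0.30) were lower like Dusp6. Hbegf (1.21), Phlda1 (0.63), Ier2 (0.60) and Epha2 (0.46) were higher. Of the other phosphatase and feedback genes 7 were higher and 6 lower. Dusp22 (2.20 ± 0.13) and Dusp3 (1.13 ± 0.10), which both encode atypical phosphatases, were higher like Dusp1 and Dusp16, and Rasa1 (-0.96), a Ras GTPase-activating protein gene, and Lrig1 (-0.70) were lower. The ERK output counts without the 3 vector arrays were 5 higher and 6 lower, and the counts of the other 3 lists were the same.

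Finally, members were compared by their pattern over the 16 group means after each line's own mean was subtracted; r is a description, since the groups share times, doses and arrays. Dusp1 ran against Dusp6 (r = -0.87), Dusp10 (-0.89) and Spry2 (-0.91), and Dusp6 ran with Spry2 (0.89). Within the 8 shRNA groups r of Dusp1 and Dusp6 was -0.99, and within the 8 vector groups it was -0.64. Dusp1 and Dusp16, both higher in shRNA cells, had an r of -0.03 over the 16 groups, from 0.56 in shRNA and -0.87 in vector groups. With the 3 vector arrays left out, the 16-group r of this pair was -0.32, and the vector-group r was -0.92 for this pair and -0.73 for Dusp1 and Dusp6. The first 4 values without the 3 vector arrays were -0.88, -0.89, -0.84 and 0.85.

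The tested genes most like each member by this measure, over 16 groups, are given with r after centring and then r over the raw group means. For Dusp6 they were Acta2, smooth muscle actin (r = 0.99, and 0.43 over the raw group means), and the transcription factor gene Foxc2 (0.99 and 0.67). For Spry2 they were the kinase gene Sgk1 (0.97 and 0.90) and Errfi1 (0.97 and 0.94). Zfp346 (0.97 and -0.31) and Sec14l1 (0.96 and 0.86) were most like Dusp1. Dclre1b (0.93 and 0.75) and the cytokine gene Il6 (0.92 and 0.26) were most like Dusp10. Asf1b (0.90 and 0.91) and Fancf (0.89 and 0.26) were most like Dusp16, and Ppp2r2d (0.91 and 0.79) and Rbms1 (0.90 and 0.86) most like Spred1. Spry4 had Armc7 (0.87 and 0.15) and Bin3 (0.83 and 0.95), and Spry1 had Rps25 (0.83 and 0.24) and Cox5a (0.81 and 0.72). Without the 3 vector arrays r of Asf1b with Dusp16 was 0.64, that of Rps25 with Spry1 was 0.65 and that of Armc7 with Spry4 was 0.71, and the others stayed at or above 0.75.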

How the data were processed

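The authors summarised probes with RMA, per the submitters' processing notes. No source used here gives its version. They deposited log2 signals of 22690 probe sets (1.84 to 14.03), which the fits used unchanged. Array medians lay between 5.66 and 5.78, and 0 of the 47 arrays were identical. Precision is limited by the number of arrays.

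Of the probe sets, 20380 have exactly 1 gene symbol, 691 several and 1555 none, and 64 are controls. These 20380 cover 12393 genes. The probe set with the highest mean stood for a gene, and the 30% of genes with the lowest mean (under 4.35) were left out, which left 8675. A limma fit (version 3.58.1, R 4.3.3) of 16 group means gave 39 contrasts, with degrees of freedom of 31 (residual) and 5.68 (prior). The group of 2 arrays is thereby taken to vary like the others. P-values are two-sided and adjusted by Benjamini-Hochberg over all tested genes of a contrast, with a threshold of 0.05. The method was tested on simulated data.

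The members, the gene lists and the rules were chosen with earlier results of these data known. Named genes are the members, Anxa2, and up to 4 genes per list with the smallest p in the untreated line and time contrasts. Also named are every ERK output gene called between untreated lines over both times, and the 2 genes with the highest r to each member. Alternatives covered the probe set rule, filter, scaling, variance model, array weights, the replicate block, the 6 h reference and each array left out. Protein features of the members had been planned and were not computed.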

Additional observations from a re-analysis of the deposited data

Results flagged for a closer look

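Among the measured members, 2 effects differed between the lines by a test of the difference itself, an interaction term of the limma fit. The change of Dusp1 from 6 to 24 h in irradiated cells was 1.10 ± 0.29 larger on the log2 scale in shRNA than in vector cells (adjusted p = 0.00912), from steps of 1.15 and 0.05. The change of Dusp10 over the same step was -0.46 ± 0.15 (adjusted p = 0.0488), from -0.33 and 0.13. The other Dusp10 probe set read 0.07 ± 0.18 for the shRNA step and -0.22 ± 0.26 for the difference between lines. Over its 32 alternatives the Dusp10 difference ranged from -0.52 to -0.34 and lost its call in 20, 18 of which left out 1 array, with an adjusted p of up to 0.255. The Dusp1 difference kept its call in all of its 32 alternatives. No cause of either difference was tested.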

How the results depend on the processing

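The 72 pairs of a member and a contrast that were called were refitted under every alternative that bears on them. Of these, 48 kept their call in each, 23 lost it in at least 1 without a change of sign, and 2 changed sign in 1. The Dusp6 pair after 10 cGy is counted in both of the last 2 groups. The sign changed with untreated 2 h cells alone as the reference at 6 h, for Dusp6 in vector cells at -0.11 (10 cGy) and -0.0078 (100 cGy). Untreated vector cells had 3 members called between 2 and 24 h, and 1 to 4 when each array was left out, with 1 without vector untreated 2 h replicate 1. The line difference in that time change had 0 members called, but 1 with quantile normalization, with an intensity trend and with the replicate block, 5 with array weights, 2 without the 3 vector arrays and 0 to 1 with 1 array left out. The 2 line differences in irradiated steps became 1 with the mean of probe sets or without a filter, 5 with array weights, 5 without the 3 vector arrays and 1 to 3 with 1 array left out. At 6 h the 4 responses called became 14 with array weights, 12 without the 3 vector arrays and 7 against untreated 24 h cells alone. With array weights 3 radiation responses at 2 and 24 h and 5 line differences in responses were called in place of 0. The latter were 2 without the 3 vector arrays. The 3 responses were Spry1 after 10 cGy at 2 h in shRNA cells (0.33), and Dusp16 (-0.39) and Spred1 (-0.30) after 100 cGy at 2 h in vector cells. Shares of all genes called are not given in this paragraph, so its counts cannot be read as results about the members. Same-numbered arrays of a line and time deviated together by a mean r of 0.22 (-0.29 to 0.72), with 67.5% of 40 pairs over 0.1, against 22.5% of 80 differently numbered pairs. As not all pairs were over 0.1 and the labels name nothing that the numbers share, no pairing was assumed, although the correlations are a hint of one within a line and time. The replicate block gave 16 irradiated steps called in place of 15 and 6 responses at 6 h in place of 4. A replicate block within line and time gave 0 calls for responses at 2 and 24 h and 0 between doses. Signals near 4.35, as for Spry1 and Spry4, limit what can be seen of these genes.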
